A study of Mus musculus with 4 samples.

Results

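The lipogenic program of the mouse liver was followed through 4 genes, *Srebf1*, *Fasn*, *Acacb* and *Nr1h3*, chosen by name among the 84 genes of adipogenesis and lipid metabolism on a PCR array plate. All 4 were on the plate and had a signal in every sample. Their wells were read in 4 liver samples of male C57BL/6J mice, 1 sample per group. They are called ND, HFD and, where the mice also received the *mol*-miR pool, ND + pool and HFD + pool. The normal diet (ND) held 3.85 kcal/g, of which fat gave 10% of the kcal, protein 20% and carbohydrate 70%. The high-fat diet (HFD) held 5.24 kcal/g, of which fat gave 60%, protein 20% and carbohydrate 20%. Mice aged 2 months ate one of these diets for 5 weeks. The *mol*-miR pool, a mixture of microRNAs of the plant *Moringa oleifera*, was given repeatedly by gavage to a group on each diet. Each group had 3 mice, but the sources used here leave unsaid if its sample is the liver of a single animal or a mixture. Each group is 1 sample and each gene 1 well of it, so no replicate check was possible. The differences below carry no error and no p-value, and they compare these samples rather than the conditions. Every direction rests on the sample names of the Ct table, which no well on the plate checks. The deposit itself disputes them, since the fold changes in its other table run the opposite way for most genes of HFD vs. ND. Each direction given here, those of the pool included, therefore holds only if the columns of the Ct table are named correctly, and which table is right could not be settled.

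*Nr1h3* encodes LXR alpha, a nuclear receptor that binds oxysterols and acts on DNA as a partner of RXR. *Srebf1* encodes SREBP-1, the transcription factor that switches on fatty acid synthesis; in liver its SREBP-1c form is a known target of both LXR and insulin. Fatty acid synthase, the product of *Fasn*, builds palmitate from acetyl-CoA and malonyl-CoA, and its gene is in turn a target of SREBP-1c and of LXR. *Acacb* encodes acetyl-CoA carboxylase 2, which makes malonyl-CoA at the mitochondrial surface, where malonyl-CoA restrains the entry of fatty acids into oxidation.

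The stretches before the *Srebf1* and *Fasn* start sites are shown because both genes are known targets of LXR, and letters of its element stand in both windows. They are RefSeq sequences of the mouse assembly GRCm38.p6, the 250 bases before the annotated start, read 5′ to 3′ on the minus strand of chromosome 11. *Srebf1* has 3 annotated starts, of which the one furthest downstream is shown (chr11:60210472-60210721), and *Fasn* has 1 (chr11:120824548-120824797). Which *Srebf1* transcript the assay detects is not given in the sources used here. Capitals mark matches, on either strand, to GGTTACT (part of the LXR element known in this *Srebf1* promoter), ATCACCC (the core of a sterol regulatory element), CACGTG (an E-box) and CCAAT (the box bound by NF-Y).
Srebf1: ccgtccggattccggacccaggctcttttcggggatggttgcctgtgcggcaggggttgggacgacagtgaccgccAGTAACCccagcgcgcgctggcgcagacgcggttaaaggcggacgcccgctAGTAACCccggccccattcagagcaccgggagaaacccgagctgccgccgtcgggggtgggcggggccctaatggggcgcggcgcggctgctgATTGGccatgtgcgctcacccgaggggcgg
Fasn: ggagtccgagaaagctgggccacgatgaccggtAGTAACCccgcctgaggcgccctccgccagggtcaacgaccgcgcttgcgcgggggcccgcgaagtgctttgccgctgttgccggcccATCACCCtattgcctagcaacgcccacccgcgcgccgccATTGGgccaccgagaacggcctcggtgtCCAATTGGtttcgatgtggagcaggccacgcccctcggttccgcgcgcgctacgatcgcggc
The *Srebf1* window shown held 2 matches to GGTTACT, written as AGTAACC on this strand, from 174 to 168 and from 123 to 117 bases before the start, and the windows of the other two *Srebf1* starts held none. A single match stood in the *Fasn* window, from 217 to 211 bases before the start. Among 32851 mouse windows of the same length, 1.88% held this motif. A match in the *Srebf1* window was fixed in advance, since the motif is part of the element known there. *Fasn* also held 1 ATCACCC (2.28% of windows) and 3 matches to CCAAT, 2 of which overlap on opposite strands, whereas *Srebf1* held 1 CCAAT (33.8% of windows). Neither window held CACGTG, which 6.02% of windows did. The single *Acacb* window held 1 CCAAT, and in both *Nr1h3* windows none of these letters were found. These are matches of letters, and binding was not measured here.

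Each well gave a threshold cycle (Ct), which is reached when its fluorescence passes a fixed level. A lower Ct means more template, with a factor of 2 for each cycle. Each Ct was corrected by the mean Ct of 5 reference genes (*Actb*, *Gapdh*, *Gusb*, *Hprt* and *Hsp90ab1*). That mean ranged over 0.624 cycles between the samples, and the single reference genes over 0.593 (*Hsp90ab1*) to 2.18 cycles (*Gapdh*). Corrected values are compared between samples for one gene, and levels of different genes cannot be ranked because each assay has its own efficiency. In a piece of liver, fewer cells of a type and less RNA per cell cannot be told apart.

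The plates differed in ways that bear on every value below. The genomic DNA control (MGDC) targets an untranscribed stretch of DNA. Its Ct was 26.8 in ND, 28.8 in ND + pool, 34.7 in HFD and 33.4 in HFD + pool. Positive PCR controls, which hold a fixed template, crossed the threshold at 16.9 to 18.4 on the ND plates and at 21.2 and 22.0 on the HFD plates, and 5 of the 12 such wells had no Ct. A Ct came from 2 positive control wells in ND, 3 in ND + pool and 1 each in HFD and HFD + pool. Of the 12 reverse transcription control wells 10 had no Ct, and the 2 that had one were both in ND + pool. Values with the DNA signal subtracted, or with the positive controls as the reference, are given below, and the part of these plate differences in the results was not tested further. The 4 hepatocyte markers of the plate (*Agt*, *Cebpa*, *Ppara* and *Nr0b2*) had a Ct in every sample, with a summed level of 0.77 to 1.13 times that of the reference genes. In both HFD samples 4 of them came more than 3 cycles before the genomic DNA control. In both ND samples 3 did, and *Nr0b2* came 1.78 cycles before it in ND and 2.12 in ND + pool. All 6 adipocyte markers also had a Ct, while *Ucp1* of brown fat and *Dlk1* of preadipocytes came at most 2.92 cycles before the genomic DNA control in any sample. The summed level of the 6 was 0.75 in ND, 1.09 in ND + pool, 0.129 in HFD and 1.58 in HFD + pool, and 1, 2, 3 and 5 of them came more than 3 cycles before the genomic DNA control. *Cfd* carried most of that sum in HFD + pool, where it was at its highest, whereas the other 5 markers were each highest in ND and without *Cfd* summed to 0.63, 0.331, 0.122 and 0.249 in the same order of samples. These sums add assays of unlike efficiency, and the part of adipocyte RNA in the values of the 4 genes was not tested.

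*Nr1h3*, the receptor, gave the earliest signal of the 4 wells in each sample, with a Ct of 20.7 in ND, 21.6 in ND + pool, 21.8 in HFD and 20.8 in HFD + pool. After correction these were -0.90, -0.51, -0.14 and -1.47 cycles relative to the reference genes. LXR alpha transcript was thus lowest in the HFD sample and highest in the HFD + pool sample, a span of 1.33 cycles or 2.51-fold. The order depended on the reference, since with *Hsp90ab1* alone ND was the highest sample, with *Hprt* alone ND + pool was the lowest, and with the median array gene or the positive control wells ND was the lowest.

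*Srebf1* had a Ct of 22.4 in ND, 23.7 in ND + pool, 22.0 in HFD and 21.9 in HFD + pool. The corrected values were 0.83, 1.58, 0.08 and -0.35 cycles. Both HFD samples lay above both ND samples, except when *Hsp90ab1* or *Actb* was the lone reference, and the span of 1.93 cycles, 3.82-fold, was the widest of the 4 genes.

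*Fasn*, a target of SREBP-1c, had a Ct of 22.6 in ND, 23.8 in ND + pool, 22.4 in HFD and 22.9 in HFD + pool. The corrected values were 0.995, 1.69, 0.486 and 0.713 cycles. As for *Srebf1*, both HFD samples lay above both ND samples, except with *Actb* alone, *Hsp90ab1* alone or the 4 references other than *Gapdh*. Within the HFD the pool sample was the lower one, and it was the higher one with *Gapdh* alone, *Actb* alone or the positive control wells.

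*Acacb* came latest, with a Ct of 25.9 in ND, 26.9 in ND + pool, 26.3 in HFD and 25.6 in HFD + pool. Its corrected values were 4.32, 4.72, 4.37 and 3.34 cycles. ND and HFD nearly coincided, and the HFD + pool sample stood above the other three. With *Hsp90ab1* alone ND was the highest sample and with the median array gene HFD was. With the genomic DNA signal subtracted, as described below, ND was the lowest sample and HFD was 0.99 (log2) above it.

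**Figure D1:**
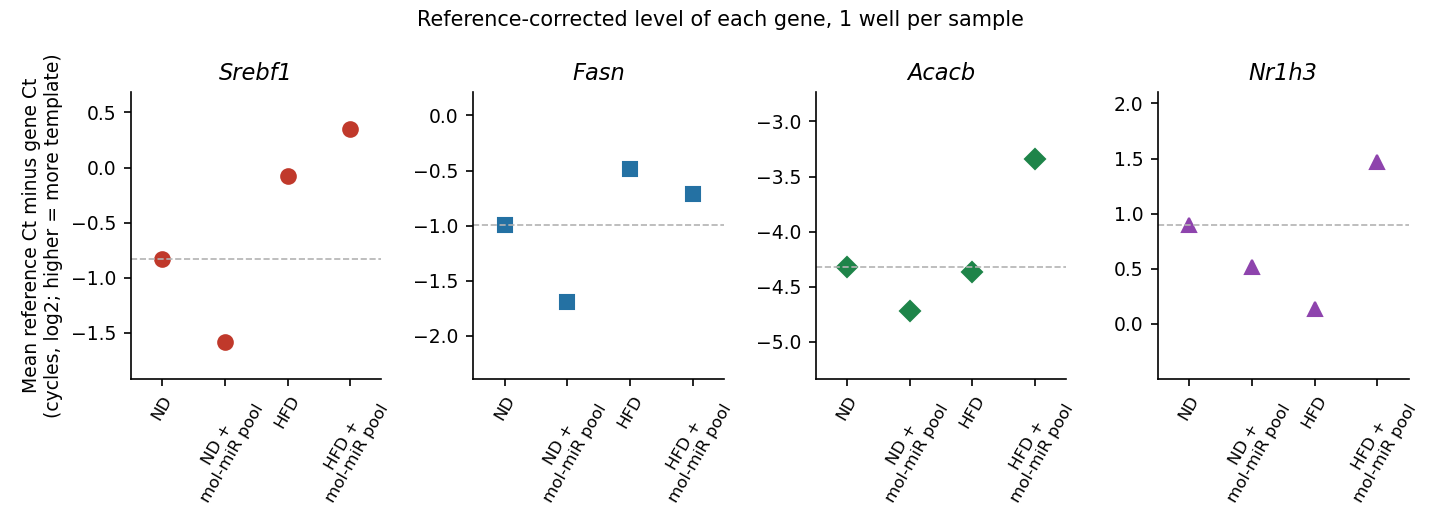
Level of each gene, as the mean Ct of the 5 reference genes minus the gene's Ct (cycles, log2 scale, higher means more template), in the 4 liver samples; each point is 1 well, the dashed line marks the ND sample, and every panel spans the same number of cycles. With this reference *Srebf1* and *Fasn* are higher in both HFD samples than in both ND samples (not so with *Actb* or *Hsp90ab1* alone nor, for *Fasn*, with the 4 references other than *Gapdh*), and *Nr1h3* is lowest in HFD and highest in HFD + pool (not so with *Hprt* or *Hsp90ab1* alone, the median array gene or the positive control wells).

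These 4 genes varied less than most genes of the plate. Over the 4 samples the corrected Ct of the 84 genes spanned 0.508 to 8.39 cycles, with a median of 2.76. *Fasn*, *Nr1h3*, *Acacb* and *Srebf1* held places 16, 17, 18 and 28 counted from the smallest span. In ND 63 and in ND + pool 55 of the 84 wells came no more than 3 cycles before the genomic DNA control, or later than it. In HFD 17 did and in HFD + pool 8. The control itself, corrected alike, stood at 5.16, 6.67, 12.7 and 11.2 cycles in ND, ND + pool, HFD and HFD + pool. The part of the DNA level in the plate's spans was not tested.

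The distance to the genomic DNA control shows how much of a well's signal could be DNA. *Nr1h3* came 6.06 cycles before that control in ND, 7.18 in ND + pool, 12.9 in HFD and 12.6 in HFD + pool. For *Srebf1* the distances were 4.33, 5.09, 12.6 and 11.5 cycles, and for *Fasn* 4.17, 4.98, 12.2 and 10.4 cycles. *Acacb* came 0.84 cycles before the control in ND and 1.95 in ND + pool, against 8.35 in HFD and 7.81 in HFD + pool.

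Expressed as signal, the control well equalled 55.9% of the *Acacb* well in ND and 26.0% in ND + pool, but 0.307% in HFD and 0.447% in HFD + pool. In the other three genes it was at most 5.56%, in the *Fasn* well of ND. *Acacb* was therefore the only one of the 4 genes whose ND values were close to the DNA level of their plates. Subtracting the control signal assumes that DNA adds as much to a gene's well as to the control's, which was not measured. It cannot hold for every well, since the *Irs1* well of ND came later than the control (a distance of -2.63 cycles).

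**Figure D2:**
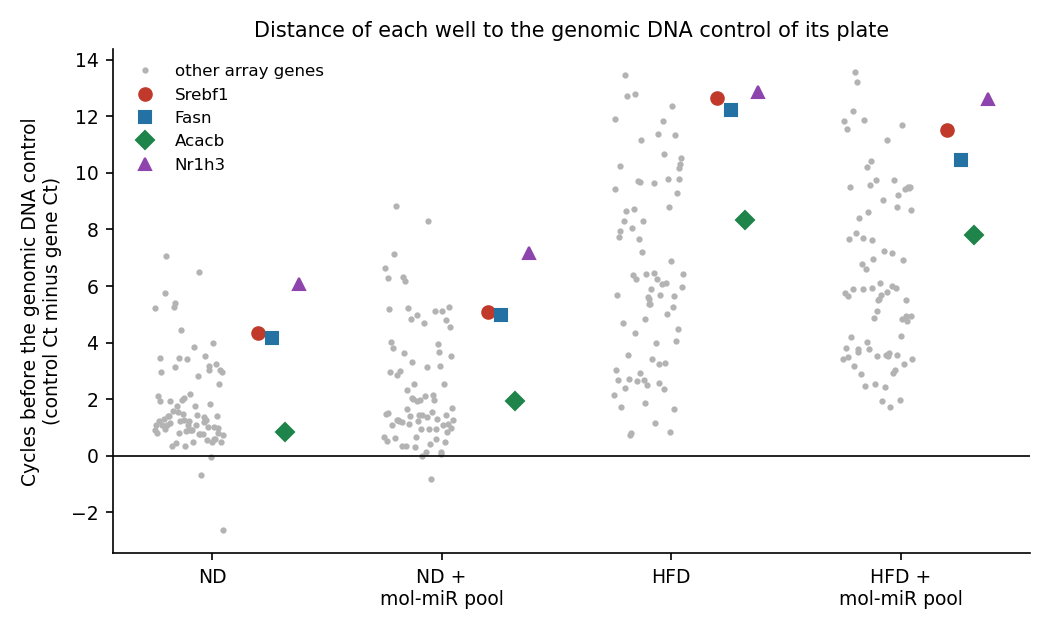
Cycles by which each well came before the genomic DNA control of its own plate (control Ct minus gene Ct) in the 4 samples; grey points are the other array genes with a Ct, coloured symbols the 4 genes, and the line at 0 is the control. *Acacb* lies 0.84 and 1.95 cycles above the line in the ND samples and 8.35 and 7.81 in the HFD samples.

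The diet was compared first without the pool. In HFD vs. ND, *Srebf1* was the 1 gene of the 4 above the limit of 1.5-fold, which 3.57% of the 84 genes passed, and none of the 4 was below 0.5-fold, where 72.6% of the genes lay. *Srebf1* was 1.68-fold higher (log2 fold change 0.75) and *Fasn* 1.42-fold (0.51). *Acacb* was at 0.97-fold (-0.04) and *Nr1h3* at 0.59-fold (-0.76).

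Over the 84 genes this comparison had a median of -2.53 (log2). Counted from the highest, *Srebf1* was at place 3, *Fasn* at 4, *Acacb* at 9 and *Nr1h3* at 19, so the 4 genes lay in the upper part of a plate on which 76 genes had a negative value. Of the 84 wells, 63 in ND and 17 in HFD came no more than 3 cycles before the genomic DNA control, or later than it, and with the control signal subtracted the plate's median was -1.78. The values depended on the reference. Among single reference genes, *Srebf1* ranged from -0.21 with *Actb* to 1.497 with *Hprt*. With the same pair *Fasn* ranged from -0.46 to 1.25, *Acacb* from -1.01 to 0.70 and *Nr1h3* from -1.73 to -0.02. The median array gene gave 3.44 for *Srebf1*, 3.196 for *Fasn*, 2.64 for *Acacb* and 1.93 for *Nr1h3*. The positive control wells gave 4.19, 3.95, 3.40 and 2.68, so that *Acacb* and *Nr1h3* changed sign with either. *Acacb* went to 0.99 when the control signal was subtracted, which put it above the limit as well, while *Nr1h3* went to -0.88.

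With the pool in both samples (HFD + pool vs. ND + pool), all 4 genes were above 1.5-fold, where 23.8% of the 84 genes lay, and none was below 0.5-fold, against 34.5% of the genes. *Srebf1* was 3.82-fold higher (log2 fold change 1.93), the highest value of the 84 genes. *Acacb* was 2.60-fold higher (1.38), at place 4, *Fasn* 1.97-fold (0.98), at place 10, and *Nr1h3* 1.94-fold (0.95), at place 11.

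The median over the plate was -0.22 here, and 0.23 with the control signal subtracted. All 4 log2 fold changes stayed above 0 with every reference tried, from 0.28 to 1.26 with *Hsp90ab1* alone, the reference that gave the lowest values. With *Gusb* alone or *Hsp90ab1* alone 2 of the 4 genes, *Srebf1* and *Acacb*, were above the limit. *Acacb* was at 1.76 after subtraction of the control signal, and the other three moved by at most 0.03.

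On the normal diet, the pool was compared with no pool (ND + pool vs. ND). None of the 4 genes was above 1.5-fold or below 0.5-fold, as 4.76% and 48.8% of the 84 genes were. *Srebf1* was at 0.595-fold (log2 fold change -0.75), *Fasn* at 0.618-fold (-0.69), *Acacb* at 0.758-fold (-0.40) and *Nr1h3* at 0.766-fold (-0.38). All 4 values were negative but above the plate's median of -0.99. Of the 84 wells, 63 in ND and 55 in ND + pool came no more than 3 cycles before the genomic DNA control, or later than it. The control itself went from 5.16 cycles relative to the reference genes in ND to 6.67 in ND + pool. With its signal subtracted the plate's median was -0.93.

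With *Gapdh* alone *Srebf1* was at -0.01 and *Fasn* at 0.04, and with *Hsp90ab1* alone both were below 0.5-fold (-1.29 and -1.23). For *Acacb* the subtraction of the control signal gave 0.25 in place of -0.40. The median array gene as the reference turned all 4 values positive (*Srebf1* 0.19, *Fasn* 0.24, *Acacb* 0.54 and *Nr1h3* 0.55). *Nr1h3* was also positive with *Gapdh* alone (0.35) and with the positive control wells (0.06), so none of the 4 signs was settled.

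On the high-fat diet, the same comparison (HFD + pool vs. HFD) put 2 of the 4 genes above 1.5-fold, where 84.5% of the 84 genes lay, and none below 0.5-fold, where 1.19% did. *Nr1h3* was 2.51-fold higher (log2 fold change 1.33) and *Acacb* 2.03-fold (1.02). *Srebf1* was at 1.35-fold (0.43) and *Fasn* at 0.85-fold (-0.23).

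The plate's median was 1.46, above all 4 genes. *Nr1h3* was at place 48 of 84, *Acacb* at 58, *Srebf1* at 76 and *Fasn* at 80, so *Srebf1* and *Fasn* were among the genes with the lowest values, and *Fasn* was one of 5 genes with a negative one. The genomic DNA control was far from these wells on both plates, and its subtraction left the 4 values as they were to the second decimal. The choice of reference did move them. *Nr1h3* ranged from 0.53 with *Hprt* alone to 2.34 with *Gapdh* alone, *Acacb* from 0.22 to 2.03, *Srebf1* from -0.37 to 1.44 and *Fasn* from -1.03 to 0.78. With the median array gene as the reference all 4 were lower, *Nr1h3* at 0.08, *Acacb* at -0.23, *Srebf1* at -0.82 and *Fasn* at -1.48.

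Both changes together were read from HFD + pool vs. ND. *Srebf1*, 2.27-fold higher (log2 fold change 1.18), and *Acacb*, 1.97-fold higher (0.98), were the 2 genes of the 4 above 1.5-fold, a limit that 14.3% of the 84 genes passed. None was below 0.5-fold, as 53.6% of the genes were. *Nr1h3* was at 1.48-fold (0.57) and *Fasn* at 1.22-fold (0.28). The median over the plate was -1.24 (-0.60 with the control signal subtracted), and *Srebf1* was at place 5, *Acacb* at 7, *Nr1h3* at 13 and *Fasn* at 25. Subtraction of the control signal put *Acacb* at 2.02 (log2), *Srebf1* at 1.12, *Nr1h3* at 0.45 and *Fasn* at 0.23. With *Hsp90ab1* alone as the reference all 4 values were below 0, *Srebf1* at -0.03, *Acacb* at -0.23, *Nr1h3* at -0.64 and *Fasn* at -0.93. The 5 comparisons share samples, so their values are not independent of each other.

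**Figure D3:**
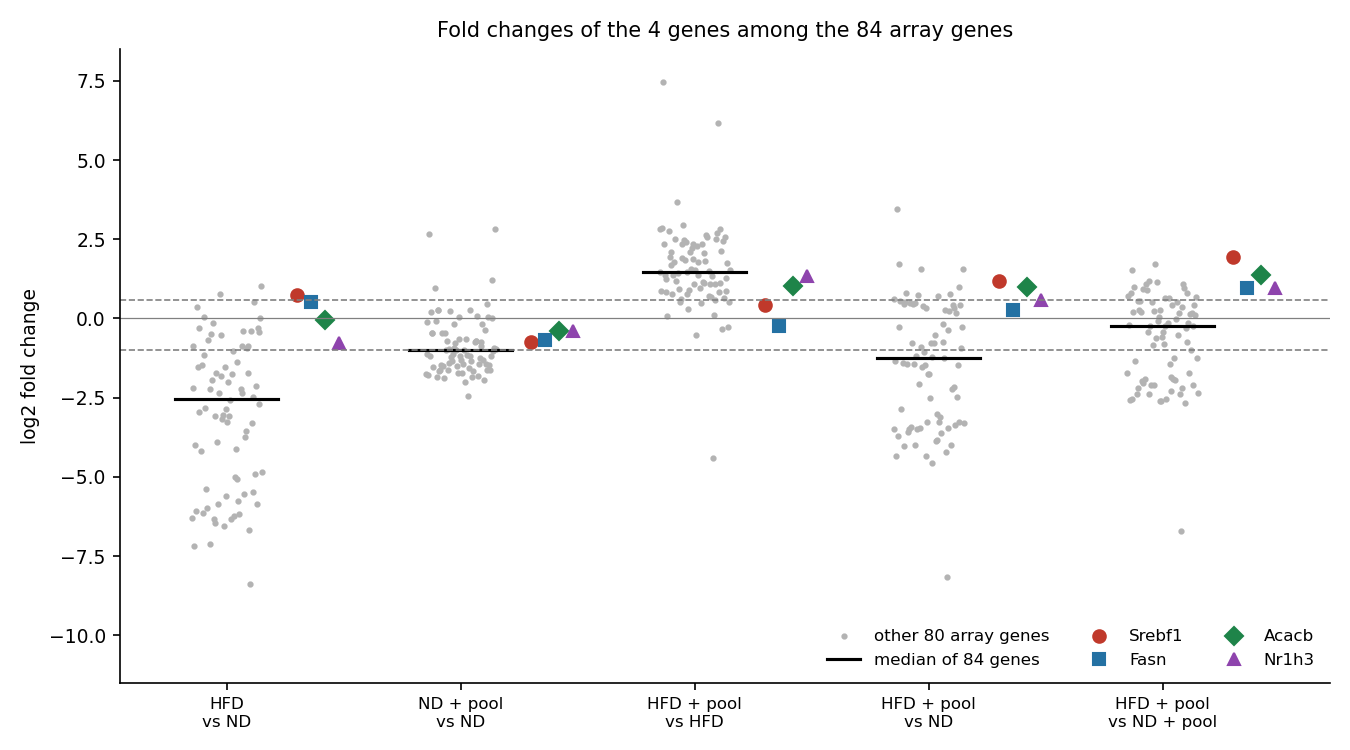
Log2 fold changes of the 84 array genes in the 5 comparisons; grey points are the other 80 genes, black bars the median of all 84, coloured symbols the 4 genes, and dashed lines the limits of 1.5-fold and 0.5-fold. The 4 genes lie above the bar in every comparison except HFD + pool vs. HFD, where they lie below it.

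**Figure D4:**
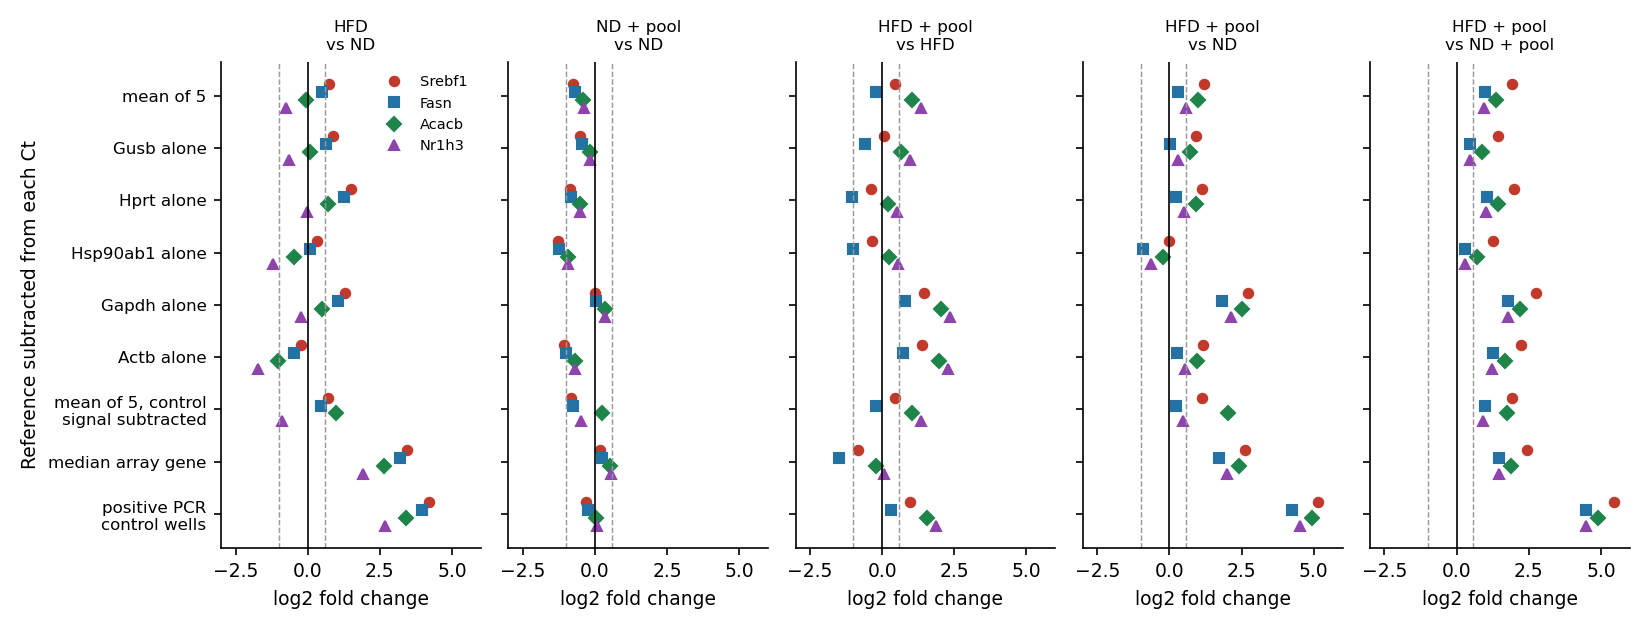
Log2 fold changes of the 4 genes (x axis) in each comparison (panels) for each reference subtracted from the Ct (rows); dashed lines mark 1.5-fold and 0.5-fold. The last panel, HFD + pool vs. ND + pool, is the one in which every symbol stays to the right of 0.

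The ratios between the 4 genes within a sample need no reference gene, since both wells come from the same plate. A difference between plates cancels in a ratio only if it acts alike on both assays, which was not measured. The 3 positive PCR control wells of the ND + pool plate had an SD of 0.057 cycles (range 0.106), and the 2 of the ND plate that had a Ct were 0.927 cycles apart. This is the spread between wells, and the spread between livers was not measured.

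*Srebf1* over *Nr1h3*, the factor over the receptor that acts on its gene, had log2 ratios of -1.73 in ND, -2.10 in ND + pool, -0.22 in HFD and -1.12 in HFD + pool. It was higher in both HFD samples than in both ND samples. The step from ND to HFD was 1.51 (log2), and the span over the 4 samples was 1.88, the widest of the 6 pairs. Subtraction of the control signal left a span of 1.91.

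*Fasn* over *Nr1h3* had log2 ratios of -1.89 in ND, -2.203 in ND + pool, -0.63 in HFD and -2.18 in HFD + pool. The HFD sample stood 1.27 above ND, and the change from HFD to HFD + pool was -1.56 (log2). Both samples with the pool were within 0.02 of each other and a little below ND, so the HFD sample stood alone.

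*Srebf1* over *Fasn* had log2 ratios of 0.16, 0.11, 0.41 and 1.07 in ND, ND + pool, HFD and HFD + pool. The HFD + pool sample was the highest and stood 0.66 above HFD.

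The pairs with *Acacb* depended on the DNA signal. *Acacb* over *Nr1h3* spanned 0.73 (log2) as deposited, the narrowest pair, and 1.87 after subtraction, when ND went from -5.22 to -6.38. *Srebf1* over *Acacb* spanned 1.15 and 1.07 respectively, but its highest ratio moved from HFD (4.29) to ND (4.60). *Fasn* over *Acacb* spanned 1.25 as deposited and 1.79 after subtraction, and was lowest in HFD + pool (2.63) either way. The median span of the 6 pairs was 1.20, beside a median of 2.80 over the 3321 pairs of the 82 array genes detected throughout. Many of those 82 genes were near the genomic DNA control in the ND samples, as given above.

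**Figure D5:**
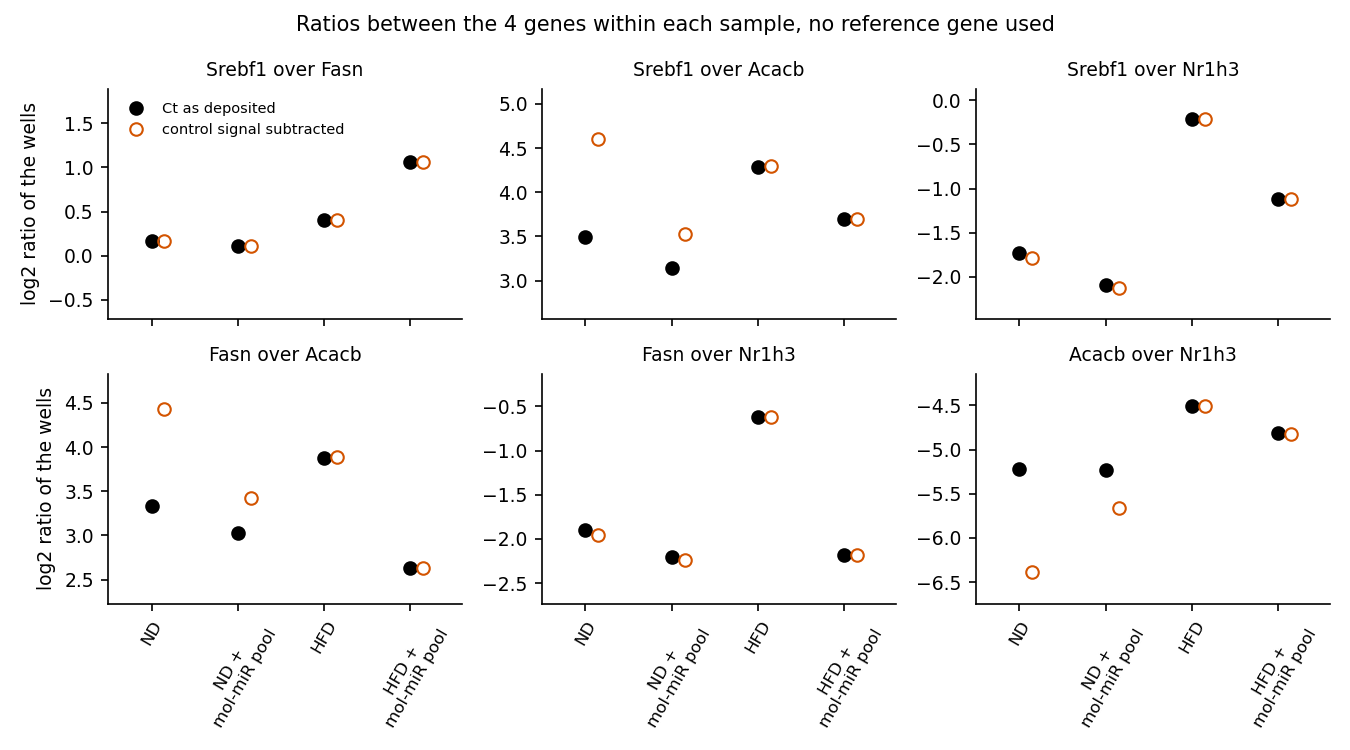
Log2 ratio of 1 gene's well to another's within each sample for the 6 pairs, with Ct as deposited (black) and after subtraction of the genomic DNA control signal (open orange); all panels span the same log2 range. *Srebf1* and *Fasn* over *Nr1h3* are highest in HFD, and only the pairs with *Acacb* move visibly with the subtraction, in the ND samples.

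The profiles over the 4 samples were compared by the root mean square difference of the centred, corrected Ct, given for 4 samples only. *Nr1h3* was closest to *Ppargc1b*, a coactivator (0.061 cycles), then to *Fgf1* (0.143) and *Tsc22d3* (0.161). *Acacb* was closest to *Hes1* (0.172), *Klf15* (0.195) and *Irs2* (0.222). The profiles use Ct as deposited, and the ND wells of *Acacb* and *Irs2* came 0.84 and 1.27 cycles before the genomic DNA control. With the control signal subtracted, HFD vs. ND was 0.99 (log2) for *Acacb*, 0.12 for *Irs2* and -0.25 for *Klf15*. *Srebf1* was closest to *Taz* (0.245), followed by *Fasn* (0.381) and *Klf15* (0.413). For *Fasn* the closest were *Ccnd1* (0.218), *Klf15* (0.319) and *Agt* (0.336), and *Srebf1* came next (0.381). With Ct as deposited, *Nr1h3* was further from *Srebf1* (0.711, place 33) and *Fasn* (0.647, place 32) than from *Acacb* (0.305, place 10). With the control signal subtracted, the ratio of *Acacb* to *Nr1h3* spanned 1.87 (log2). That of *Srebf1* to *Nr1h3* then spanned 1.91 and that of *Fasn* to *Nr1h3* 1.61. The distances were not recalculated, so whether their order holds after subtraction is not known. With Ct as deposited, *Klf15*, a transcription factor of hepatic fuel metabolism, was thus among the nearest 3 of *Srebf1*, *Fasn* and *Acacb*.

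The surroundings of the 4 genes were read from 18 other array genes of the same pathways. In HFD vs. ND, 1 of the 18 (5.56%, beside 3.57% of the plate) was above 1.5-fold and 10 (55.6%, beside 72.6%) were below 0.5-fold, with a median log2 fold change of -1.24 beside -2.53. Of the 5 partners and coregulators of nuclear receptors, 3 were below 0.5-fold and none above 1.5-fold. The RXR alpha gene *Rxra*, the DNA-binding partner of LXR alpha, had the lowest value of them (-3.17), with a Ct of 24.7 in ND and 28.2 in HFD. The *Rxra* well of ND came 2.03 cycles before the genomic DNA control, and with the control signal subtracted the value was -2.92. *Ppargc1b* (-0.68), which also coactivates SREBP-1, had the highest. The insulin signalling genes were split. *Irs1* was at 1.04, from a Ct of 29.4 in ND that was later than the genomic DNA control of its plate, *Irs2* at -0.51 and *Insr*, the insulin receptor, at -2.58. The ND wells of *Irs2* and *Insr* came 1.27 and 0.918 cycles before that control, and after subtraction the values were 0.12 and -1.65. Of the oxidation genes, *Ppara* (-1.53) was below 0.5-fold and its coactivator *Ppargc1a* (-0.87) was not. The 3 genes of lipid uptake, storage and breakdown, *Fabp4* (-1.76), *Lpl* (-2.35) and *Lipe* (-3.27), were all below 0.5-fold, as was most of the plate.

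In ND + pool vs. ND, 1 of the 18 was above 1.5-fold, *Irs1* (2.82), and 4 (22.2%, beside 48.8% of the plate) were below 0.5-fold, with a median of -0.73. With the pool on the HFD, 15 of the 18 (83.3%, beside 84.5% of the plate) were above 1.5-fold and none below 0.5-fold, and their median was 1.13. All 18 had a positive value there, as 79 of the 84 genes did, from *Nr0b2* (0.49), the small repressor of nuclear receptors, to *Pparg* (2.49), whereas *Fasn* was negative. For HFD + pool vs. ND, 2 were above (11.1%, beside 14.3% of the plate) and 4 below (22.2%, beside 53.6%), with a median of 0.02.

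In HFD + pool vs. ND + pool, 5 of the 18 (27.8%, beside 23.8% of the plate) were above 1.5-fold and 1, *Irs1* (-1.25), was below 0.5-fold, with a median of 0.32 beside 1.18 for the 4 genes. The 5 were *Klf15* (1.20), *Irs2* (1.16), *Ppargc1a* (1.08), *Ppargc1b* (0.94) and *Nr0b2* (0.63). *Rxra* was at -0.08 here (0.14 with the control signal subtracted), beside 0.95 for *Nr1h3*, its partner.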

How the data were processed

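Gene expression was measured with a 96-well PCR array in 4 mouse liver samples, 1 per group. The Ct of every well, a score that the authors deposited as exported and without normalization, was used. A second deposited table holds the fold changes of the authors' own comparisons and was not used. In HFD vs. ND its values run opposite to the Ct columns as named for most genes.

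Samples were assigned to columns by name; the columns of the ND samples abbreviate low-fat diet. Missing Ct values and those above 35 were replaced by 35, the 5 reference genes' mean was subtracted, and differences between samples were taken as log2 fold changes, assuming a doubling in each cycle. The limits were 1.5-fold and 0.5-fold. Other references, Ct limits and fold limits, and subtraction of the genomic DNA control signal, were tried. With 1 sample per group no test was made, and repeated wells exist only for control templates.

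Named are the 4 genes, 18 pathway genes, reference genes, markers, control wells and the 3 nearest profiles of each gene. These members and lists were chosen with earlier results of these data known. All 84 symbols matched RefSeq (GRCm38.p6), which also gave the promoter windows; the build the study used is not given in the sources used here. The calculation was tested on simulated data. Python 3.11.15, numpy 2.4.6, pandas 2.3.3 and matplotlib 3.10.9 were used.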

Additional observations from a re-analysis of the deposited data

Results flagged for a closer look

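With the pool, *Srebf1*, *Acacb* and *Nr1h3* had a negative log2 fold change on the ND and a positive one on the HFD. The value on the HFD minus that on the ND was 1.18 (log2) for *Srebf1*, 1.42 for *Acacb* and 1.71 for *Nr1h3*. *Fasn* was negative on both diets, with a difference of 0.47. The differences were not tested, as each value compares 1 sample with 1 sample. The same pair of signs was found in 66 of the 84 genes, and the median difference over the plate was 2.28, above that of each of the 4 genes. Of the 84 wells, 63 in ND and 55 in ND + pool came no more than 3 cycles before the genomic DNA control, or later than it. The pattern depended on the reference. With the median array gene the differences were -1.01 for *Srebf1*, -0.77 for *Acacb* and -0.47 for *Nr1h3*, the opposite sign. *Srebf1* was negative on both diets with *Hprt* alone or *Hsp90ab1* alone. *Acacb* and *Nr1h3* were positive on both diets with *Gapdh* alone or the positive control wells, as was *Acacb* after subtraction of the genomic DNA control signal (0.25 on the ND).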

How the results depend on the processing

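No paired analysis was possible because each group holds 1 sample and no test was made. The references carried most of the dependence. Over the 84 genes the median of HFD vs. ND (log2) was -2.53, and ranged from -3.50 with *Actb* alone to 0.91 with the positive PCR control wells, of which only those with a Ct could be used. In HFD vs. ND, the count of the 4 genes above 1.5-fold went from 1 to 0 with *Actb* alone, *Hsp90ab1* alone, the 4 references other than *Hprt* or a limit of 2-fold, to 2 with *Gapdh* alone, *Gusb* alone, the 4 references other than *Actb* or *Hsp90ab1* or the control signal subtracted, to 3 with *Hprt* alone, and to 4 with the median array gene or the positive control wells. Below 0.5-fold, it went from 0 to 2 with *Actb* alone and to 1 with *Hsp90ab1* alone or the reciprocal of 1.5 as the limit. In ND + pool vs. ND, the count below 0.5-fold went from 0 to 1 with *Actb* alone and to 2 with *Hsp90ab1* alone or the reciprocal limit. In HFD + pool vs. HFD, the count above 1.5-fold went from 2 to 4 with *Actb* or *Gapdh* alone and to 0 with *Hprt* alone, *Hsp90ab1* alone or the median array gene, which each put 1 gene below 0.5-fold. That count above 1.5-fold was 3 with the 4 references other than *Hprt* or *Hsp90ab1* or with the positive control wells. In HFD + pool vs. ND, the 2 genes above 1.5-fold became 4 with *Gapdh* alone, the median array gene or the positive control wells, 0 with *Hsp90ab1* alone and 1 with a limit of 2-fold. They became 3 with the 4 references other than *Gusb* or *Hsp90ab1*. In HFD + pool vs. ND + pool, the 4 genes became 2 with *Gusb* alone, *Hsp90ab1* alone or a limit of 2-fold. Of the values above the limit, *Srebf1* in HFD vs. ND changed sign with *Actb* alone (-0.21). With *Hsp90ab1* alone, *Srebf1* (-0.028) and *Acacb* (-0.23) did so in HFD + pool vs. ND, and *Acacb* in HFD + pool vs. HFD with the median array gene (-0.23). The cause was not tested. A Ct limit of 32 or none changed no count of the 4 genes or of the 18 pathway genes. It could not do so, since the latest Ct among these genes was 29.4 (*Irs1* in ND).

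The counts of the 18 pathway genes moved as follows. Changes by a factor of 1.5 or less are not listed. With *Hsp90ab1* alone, for example, 10 below 0.5-fold in HFD vs. ND became 14. Above 1.5-fold in HFD vs. ND, 1 became 0 with *Actb* alone or the control signal subtracted, 2 with *Hprt* alone, 13 with the median array gene and 16 with the positive control wells. Below 0.5-fold, 10 became 17 with *Actb* alone, 6 with *Hprt* alone, and 0 with the median array gene or the positive control wells. In ND + pool vs. ND, 1 above became 5 with *Gapdh* alone or the median array gene, 2 with the positive control wells and 0 with the control signal subtracted, and 4 below became 11 with *Actb* alone, 12 with *Hsp90ab1* alone, 7 without *Gapdh*, 2 with *Gusb* alone, 1 with the positive control wells, and 0 with *Gapdh* alone or the median array gene. Of HFD + pool vs. HFD, 15 above became 6 with *Hprt* alone, 8 with *Hsp90ab1* alone and 4 with the median array gene. For HFD + pool vs. ND, 2 above became 14 with *Gapdh* alone, 13 with the median array gene, 18 with the positive control wells, 7 without *Hsp90ab1*, 1 with *Gusb* alone or without *Gapdh*, and 0 with *Hsp90ab1* alone, and 4 below became 9 with *Hsp90ab1* alone, 2 without *Hsp90ab1*, 1 with the control signal subtracted, and 0 with *Gapdh* alone, the median array gene or the positive control wells. For HFD + pool vs. ND + pool, 5 above became 9 with *Actb* alone, 16 with *Gapdh* alone, 2 with *Gusb* alone, 0 with *Hsp90ab1* alone, 13 with the median array gene, 18 with the positive control wells, and 8 without *Gusb* or without *Hsp90ab1*, and 1 below became 2 with *Hsp90ab1* alone and 0 with *Actb* alone, *Gapdh* alone, the control signal subtracted, the median array gene or the positive control wells. With the control signal subtracted, *Irs1* had no value in the comparisons with ND.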
